A study of Homo sapiens with 21 samples.

Results

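Transcripts of 7 genes of high-energy phosphate transfer and oxygen storage were followed through the differentiation of human iPSCs to cardiomyocytes: the creatine kinases CKB, CKM, CKMT1A, CKMT1B and CKMT2, the adenylate kinase AK1 and myoglobin (MB). They were chosen by gene name, as every row of the 6 deposited tables that carries one of these names. These are 7 of the 11851 genes listed in any table, and 21 of 36579 rows. The rows name 15 transcripts, of the 70 that GENCODE 44 annotates for these genes, and the other 55 were listed in none of the tables.

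Wild-type PGP1 iPSCs, from an established human line, were taken through mesoderm (M), cardiac mesoderm (CMes) and cardiac progenitors (CP) to cardiomyocytes (CM) and sequenced, with 3 wild-type libraries at each of the 5 stages. The study also compared wild-type CMs with CMs of 2 UBE2B-/- lines, with 3 libraries each. UBE2B is an E2 ubiquitin-conjugating enzyme of the complex that places ubiquitin on histone H2B. All groups share the PGP1 background. The iPSC libraries precede differentiation, which was begun with the Wnt activator CHIR99021 and continued days later with the Wnt inhibitor IWP4, in wild-type and mutant cells alike. Mutant cells were plated at a higher number than wild-type cells. The replicates of a group stem from separate plates with staggered starts. The mutant lines are clones from independent editing experiments, and only mutant wells that beat were sequenced. Beating wells were also selected in lactate without glucose, a medium that leaves cells relying on oxidative metabolism. Therefore the CM libraries differ from the CP libraries in medium as well as in stage, and their parts in any change from CP to CM cannot be told apart. In these bulk samples, fewer cells of a type and less RNA per cell cannot be told apart either.

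Creatine kinase moves a phosphate group between ATP and creatine. In striated muscle, a mitochondrial isozyme charges creatine where ATP is made, and a cytosolic isozyme at the myofilaments and membrane pumps recharges ATP where it is used. CKB is the brain-type and CKM the muscle-type cytosolic subunit. CKMT1A and CKMT1B are duplicated genes for the ubiquitous mitochondrial isozyme, and CKMT2 encodes the sarcomeric one. AK1 is the major cytosolic adenylate kinase of muscle, which recovers ATP from ADP, and MB binds oxygen in heart and skeletal muscle.

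The members lie on 6 chromosomes in GRCh38. CKM spans chr19:45306413-45322875 on the minus strand, CKB spans chr14:103519667-103522833 on the minus strand, and CKMT2 spans chr5:81233320-81266398 on the plus strand. AK1 spans chr9:127866486-127877675 and MB spans chr22:35606764-35637951, both on the minus strand. CKMT1B (chr15:43593054-43604901) and CKMT1A (chr15:43692886-43699222) lie in the same orientation on the plus strand.

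The sequences just before the start sites are printed for CKB and CKM, which moved in opposite directions from CP to CM, and for MB. Each has 120 bases of RefSeq sequence on the gene's strand, with matches to the searched motifs in capitals.
CKB, chr14:103522831-103522950, minus strand: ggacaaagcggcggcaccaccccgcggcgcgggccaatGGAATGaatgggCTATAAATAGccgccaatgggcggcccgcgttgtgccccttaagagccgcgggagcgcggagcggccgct
CKM, chr19:45322876-45322995, minus strand: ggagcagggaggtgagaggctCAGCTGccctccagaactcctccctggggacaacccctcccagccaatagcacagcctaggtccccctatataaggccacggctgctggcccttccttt
MB, start of ENST00000359787.5, chr22:35623355-35623474, minus strand: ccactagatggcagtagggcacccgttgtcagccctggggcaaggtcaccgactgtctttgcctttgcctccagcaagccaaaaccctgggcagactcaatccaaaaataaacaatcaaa
The motifs were TATAAA, the E-box CANNTG, the MEF2 motif (CTA and TAG 4 bases apart), the CArG box and the TEAD motif CATTCC, on both strands. In the 250 bases before the start, CKB held a TEAD match 82 bases and an MEF2 match 70 bases before the start, and the MEF2 match overlaps a TATAAA 69 bases before it. CKM held E-boxes 241 and 99 bases before the start, and this MB start held 1 E-box, 159 bases before it. The MB transcript of highest mean (ENST00000397326.7) starts elsewhere, and no RefSeq window was found at its start. Among 35116 RefSeq promoters, 61.8% held an E-box, 11.9% a TEAD match, 10.7% TATAAA, 2.36% an MEF2 match and 1.16% a CArG box. No CArG box was found in the 15 RefSeq windows of the member genes. A match is a description of letters, not of a bound site.

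CKMT1A and CKMT1B are shown because their sequences bear on how reads can be assigned. Capitals mark the run of 225 bases that both windows share within their 250 bases before a RefSeq start.
CKMT1A, chr15:43693571-43693690, plus strand: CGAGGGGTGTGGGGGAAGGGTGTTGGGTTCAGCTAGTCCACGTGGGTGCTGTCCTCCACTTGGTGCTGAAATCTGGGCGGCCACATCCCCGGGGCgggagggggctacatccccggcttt
CKMT1B, chr15:43593714-43593833, plus strand: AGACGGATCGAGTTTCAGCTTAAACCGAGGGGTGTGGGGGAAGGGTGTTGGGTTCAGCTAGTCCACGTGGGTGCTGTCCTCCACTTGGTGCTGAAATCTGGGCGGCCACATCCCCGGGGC
The copies are as close in their transcripts. Of the 31-base words in the listed coding transcript of CKMT1A (ENST00000434505.5), 93.0% also occur in transcripts of CKMT1B, and of those in the listed MANE Select transcript of CKMT1B (ENST00000441322.5) 92.1% occur in transcripts of CKMT1A. Neither has a word found in no other transcript. The values of the 2 genes are therefore an uncertain division of shared reads, and they are given together.

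The tables give no value per library. The 3 libraries of a group are known by their geometric mean, in Kallisto's estimated counts with 0.5 added, and by the residual standard deviation between replicates (replicate SD). Each mean was recovered from the effect b and the mean of the log values. Log2 changes carry sleuth's standard error (SE), and q-values are those of its Wald test, with the Benjamini-Hochberg adjustment spanning the whole transcriptome tested. A transcript was called when its q-value was at most 0.05 and its absolute b at least log2(1.5), which is a 1.79-fold change because b is on the natural-log scale. The tables stop at a q-value of 0.05, so the change of a member that is not listed is unknown, not zero.

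Among the cytosolic isozymes, CKM rose and CKB fell between CP and CM. CKM (ENST00000221476.4, the only annotated transcript of the gene) rose from 11.9 estimated counts in CPs to 2276 in CMs, which is 191-fold or 7.58 on the log2 scale (SE 0.66, q = 1.04e-28). Its replicate SD was 0.80 on the log2 scale, far less than the change. CKB (ENST00000348956.7) fell 1.89-fold, from 3376 to 1783 estimated counts (log2 change -0.92, SE 0.13, q = 1.25e-10), with a replicate SD of 0.14. Of all transcripts tested from CP to CM, 8.25% were called higher and 6.99% lower.

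Per kilobase of transcript, CKB stood at 2377 and CKM at 7.67 estimated counts in CPs. In CMs, CKB stood at 1255 and CKM at 1463. CKM thus went from 0.322% to 53.8% of the sum of the listed CKM and CKB transcripts, while that sum went from 2385 to 2718 per kilobase. Only 1 of the 18 annotated CKB transcripts was listed, and all of its 31-base words also occur in other CKB transcripts, so the share holds for listed transcripts only. The levels of CKM and CKB in CMs differed by a ratio of 1.17, which is within the replicate SD of CKM, a factor of 1.74. That SD describes single libraries of CP and CM together, not the error of a CM mean. The difference between genes within a stage was not tested.

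The earlier stages showed a brief appearance of CKM. In M cells it stood at 2.28 estimated counts, in CMes at 79.8, and its log2 change was 5.13 (SE 1.02, q = 1.98e-05). It then fell from CMes to CP, from 80.3 to 13.4 estimated counts (log2 change -2.58, SE 0.62, q = 5.93e-04). Its level in M cells is so near the pseudocount that the size of the first change depends on the 0.5 added. On the scale of the CP to CM table, CKM stood at 2.03 in M, 71.1 in CMes, 11.9 in CP and 2276 in CM. The level in CMes is thus above those of its neighbours on either side, and all 3 steps were called. From iPSC to M, CKM was not listed.

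CKB was the most abundant of the listed creatine kinase transcripts in M, CMes and CP per kilobase. From M to CMes its log2 change was -0.77 (SE 0.12, q = 3.49e-09), from 5309 to 3118 estimated counts, which passed the q-value limit but not the limit on b. This was a 1.70-fold fall, so its call depends on the scale of that limit. Taken as 1.5-fold on the natural-log scale of b, the limit would call CKB lower, and the member transcripts called lower from M to CMes would be 5 instead of 4. It was not listed from iPSC to M or from CMes to CP. Carried onto the CP to CM scale, its levels were 4731 in M, 2779 in CMes, 3376 in CP and 1783 in CM. The span from highest to lowest was a factor of 2.65, against 1119 for CKM. The untested difference from CMes to CP across these tables was 0.28 on the log2 scale.

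**Figure D1:**
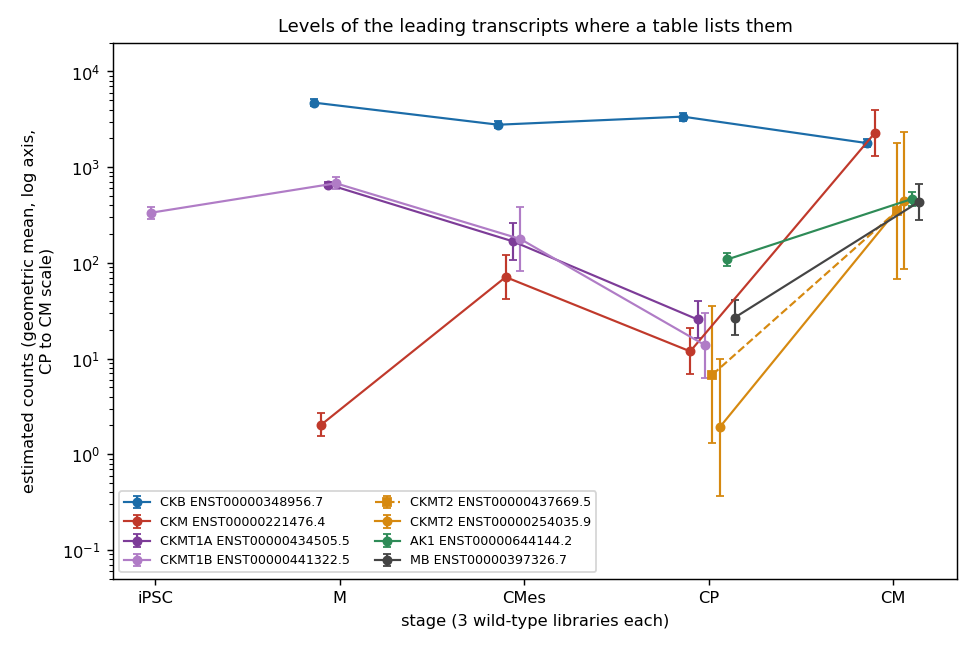
Levels of the leading member transcripts by stage (x axis, 3 wild-type libraries each) in estimated counts on a log axis, carried onto the scale of the CP to CM table. Points are geometric means, bars are 1 replicate SD either way, and stages with no point were not listed. CKM stands at 2.03 in M and 2276 in CM with a rise at CMes in between, CKB stays between 1783 and 4731, and the CKMT1 copies fall after M.

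The ubiquitous mitochondrial isozyme was highest in M cells among the stages where it was listed. CKMT1B (ENST00000441322.5) rose from 351 estimated counts in iPSCs to 712 in M cells (log2 change 1.02, SE 0.31, q = 0.0275). This was the only member transcript listed for that step, at which 1.24% of all transcripts tested were called higher. From M to CMes it fell from 762 to 199 estimated counts (log2 change -1.94, SE 0.51, q = 0.00286). CKMT1A (ENST00000434505.5) fell from 740 to 188 estimated counts (log2 change -1.97, SE 0.19, q = 3.45e-22).

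From CMes to CP, CKMT1A fell from 189 to 28.9 estimated counts (log2 change -2.71, SE 0.58, q = 8.04e-05). CKMT1B fell from 200.4 to 15.6 (log2 change -3.68, SE 1.01, q = 0.00389). Over both steps, CKMT1A went down by a factor of 25.7 from M to CP and CKMT1B by a factor of 49.2. At M their levels were 659 and 679 on the CP to CM scale. With most 31-base words shared, neither level is a measure of one copy alone. CKMT1A was not listed from iPSC to M, where CKMT1B rose.

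Much of the uncertainty of CKMT1B lay in the quantification of its reads. This technical part made up 82.4% of the variance behind its SE at the first step (iPSC to M), 91.5% at the second (M to CMes) and 90.5% at the third (CMes to CP). For CKMT1A it was 39.0% from M to CMes and 80.3% from CMes to CP. A retained-intron transcript of CKMT1A (ENST00000479938.1) fell by 1.64 and a nonsense-mediated-decay transcript of CKMT1B (ENST00000437534.3) fell by 1.37 on the log2 scale from M to CMes (q = 1.88e-04 and 3.24e-04). These hold more words of their own, with 67.1% and 34.8% of their 31-base words found in no other transcript.

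From M to CMes, 1 member transcript was called higher and 4 lower, against 3.81% and 2.65% of all transcripts tested. From CMes to CP, 3 were called lower, against 2.63% of all tested. No CKMT1A or CKMT1B transcript was listed from CP to CM.

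CKMT2, the sarcomeric mitochondrial isozyme, was listed only from CP to CM, where it rose with a wide spread. Its MANE Select transcript (ENST00000254035.9) went from 1.92 to 445 estimated counts (log2 change 7.86, SE 1.94, 95% interval 4.05 to 11.7, q = 5.97e-04). A second coding transcript (ENST00000437669.5) went from 6.79 to 348 estimated counts (log2 change 5.68, SE 1.94, 95% interval 1.88 to 9.48, q = 0.0222). The replicate SD was 2.38 on the log2 scale for each, a factor of 5.20, the widest among the members. The tables do not say which of the stages holds this spread.

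The 2 coding transcripts of CKMT2 differ by little, since 99.9% and 100% of their 31-base words occur in other transcripts of the gene. The technical part was nonetheless only 16.4% and 12.1% of the variance behind their SEs. A retained-intron transcript (ENST00000505850.1) rose from 7.80 to 49.8 estimated counts (log2 change 2.67, SE 0.99, q = 0.0394), with a replicate SD of 0.39. Summed over the 3 listed transcripts, CKMT2 went from 16.9 to 608 estimated counts per kilobase.

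AK1 had the smallest rises among the members called higher from CP to CM, and its main transcript had the smallest SE after CKB. That transcript (ENST00000644144.2, MANE Select) rose 4.28-fold, from 109 to 465 estimated counts (log2 change 2.10, SE 0.22, q = 2.63e-19), with a replicate SD of 0.24. A shorter transcript without a defined coding sequence (ENST00000413016.5) rose from 31.2 to 155 estimated counts (log2 change 2.32, SE 0.55, q = 2.73e-04). The changes of both agree within their SEs. These changes are not separate measures of AK1, since 94.3% of the shorter transcript's 31-base words also occur in other AK1 transcripts. The shorter transcript is uncertain, because 94.3% of its 31-base words also occur in transcripts of another annotated gene, ENSG00000257524. The main transcript shares 41.7% of its words with transcripts of 3085 other genes, and 55.7% occur in no other transcript. AK1 was not listed at the earlier steps.

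MB rose in all 4 of its listed transcripts from CP to CM. The MANE Select transcript (ENST00000397326.7) went from 26.7 to 435 estimated counts, or 16.3-fold (log2 change 4.03, SE 0.83, q = 2.25e-05). ENST00000406324.5 went from 3.38 to 106 estimated counts (log2 change 4.97, SE 1.24, q = 6.87e-04). ENST00000359787.5 and ENST00000443033.5 were listed at 0 in CPs, where their means equal the pseudocount of 0.5, and at 231 and 15.9 estimated counts in CMs.

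Their fitted log2 changes were 8.85 (SE 0.96, q = 3.28e-18) and 4.99 (SE 1.53, q = 0.00842), and both depend on the pseudocount. The division among MB transcripts is uncertain, since at most 12.0% of the 31-base words of any of them are its own. For the MANE Select transcript, 88.4% of the variance behind the SE was technical. The sum over the 4 listed transcripts is less exposed to that division and reached 811 estimated counts per kilobase in CMs, 25.4 times its level in CPs. The replicate SDs of the 4 transcripts lay between 0.23 and 0.62 on the log2 scale. MB was not listed before the CP to CM step.

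**Figure D2:**
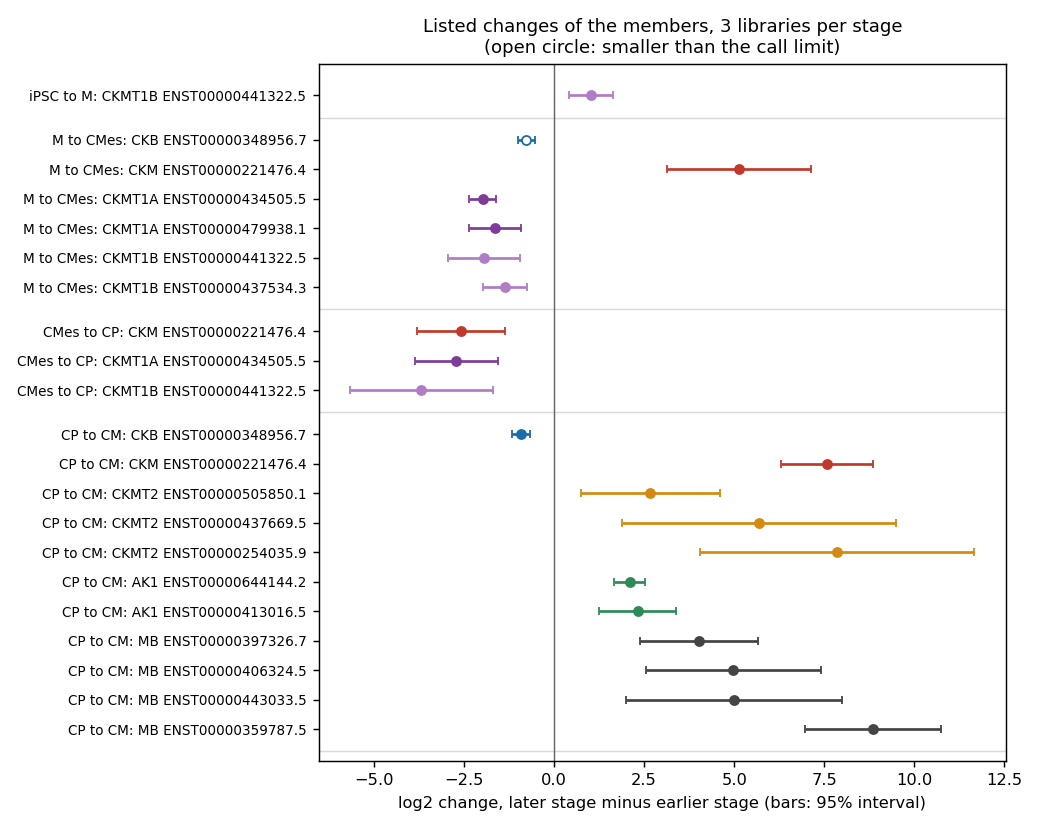
Log2 changes (x axis, later stage minus earlier) of all 21 listed rows of the members, by stage step, with 95% intervals from sleuth's SE. From CP to CM 10 transcripts lie above 0 and CKB below it, and the intervals of CKMT2 are the widest. The open circle is CKB from M to CMes, which was under the limit on b.

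In all, 10 member transcripts of 4 genes (CKM, CKMT2, AK1 and MB) were called higher from CP to CM and 1 (CKB) lower. Their rises ran from 2.10 to 8.85 on the log2 scale with a median of 4.98, beside a median of 2.43 over the 5767 transcripts called higher. By size, CKM stood at place 337 of these 5767, and the MANE Select transcripts of CKMT2, MB and AK1 at places 272, 2024 and 3196. The second coding transcript of CKMT2 stood at place 1021. The place of the MANE Select transcript of CKMT2 depends on the 0.5 added, as it stood at 1.92 in CPs. Per kilobase in CMs the order was CKM (1463), CKB (1255), MB (811), CKMT2 (608) and AK1 (508), summed over listed transcripts. Of the AK1 sum, 296 came from the uncertain shorter transcript (ENST00000413016.5) and 212 from the MANE Select transcript. CKM and CKB differed by less than the replicate SD of CKM. Both neighbours of CKMT2 differed from it by less than the replicate SD of its coding transcripts. These SDs describe single libraries and pool CP with CM, so they do not measure the error of the CM means. No pair was tested.

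**Figure D3:**
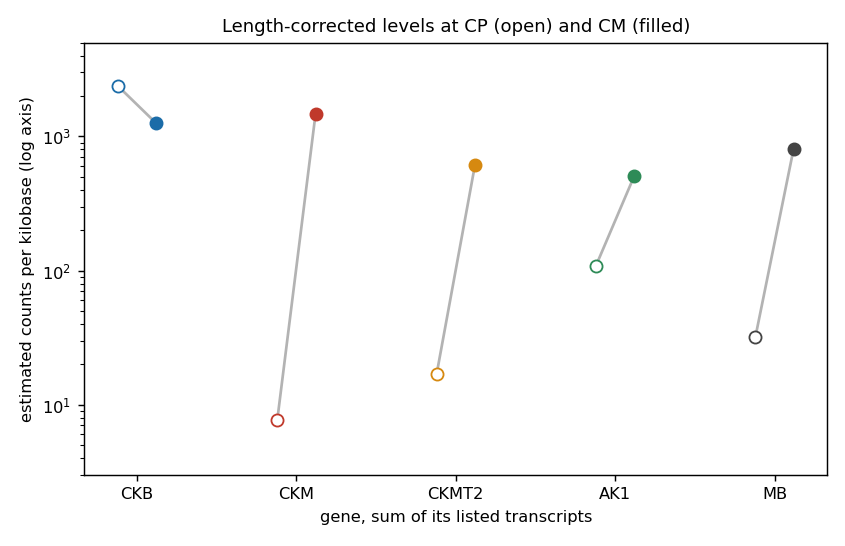
Estimated counts per kilobase (log axis), summed over listed transcripts, at CP (open) and CM (filled) for the 5 genes listed for that step. CKB goes down from 2377 to 1255 while CKM goes up from 7.67 to 1463, and MB, CKMT2 and AK1 end between 508 and 811. Of the AK1 value in CMs, 296 belongs to the uncertain shorter transcript ENST00000413016.5.

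These calls rest on sleuth's normal approximation with 3 libraries per group. With a t distribution on the same statistics, the calls from CP to CM went from 10 to 1 higher (CKM, q = 0.0471) and from 1 to 0 lower, and those of the 3 earlier steps went to 0.

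For members listed in at least 2 tables, the most similar patterns were sought by Euclidean distance of the log2 changes, among transcripts listed in exactly the same tables. Nearest to CKB, over 2 steps and 879 transcripts, were EXOSC5, XPOT and TRAP1, at distances of 0.031 to 0.076. Nearest to CKMT1A, over 2 steps and 733 transcripts, were GUCY2C (0.24), MATR3 (0.44) and CHGB (0.55). Nearest to CKMT1B, over 3 steps and 260 transcripts, were TACR3 (0.86), F13A1 (0.97) and ACOXL (1.24). Nearest to CKM, over 3 steps and 741 transcripts, were PDE1C (3.27), DEDD2 (3.36) and SLC46A3 (3.49). Distances were not scaled by SE and grow with the size of the changes and the number of steps. They therefore do not compare between members. PDE1C rose by 4.48, fell by 2.11 and rose by 4.41 on the log2 scale where CKM changed by 5.13, -2.58 and 7.58.

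A list of 29 other genes of the same pathways was set beside the members: creatine synthesis and transport, other adenylate kinases, AMP deaminases, AMP-activated kinase, adenine nucleotide exchange, and other globins. From CP to CM, 10 of the 29 were called higher and 2 lower. The 29 are counted as genes here and below. The shares of all transcripts called at this step, 8.25% higher and 6.99% lower, are therefore not directly comparable. The largest rise was SLC25A4, the heart-type ADP/ATP carrier of the inner mitochondrial membrane, at 4.46 on the log2 scale (SE 0.16, q = 4.82e-166). That value is of ENST00000491736.1, annotated as subject to nonsense-mediated decay, and the MANE Select transcript of SLC25A4 (ENST00000281456.11) changed by 4.23 (SE 0.18). PRKAG2, a regulatory subunit of AMP-activated kinase, rose by 2.08 (SE 0.28). GATM, which makes the precursor of creatine, changed by 1.41 (SE 0.46), and GAMT, which completes creatine, one of 0.64 that was under the limit on b. Called lower were AK5 at -3.18 (SE 1.12) and the mitochondrial AK4 at -1.35 (SE 0.51). At the earlier steps, 2 of the 29 were called higher and 0 lower from iPSC to M, 2 higher and 5 lower from M to CMes, and 3 higher and 1 lower from CMes to CP.

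The CM label was checked against markers. All 12 cardiomyocyte markers, among them TNNT2, MYH7 and NKX2-5, were called higher from CP to CM and stood at 814 to 193261 estimated counts in CMs. Since CKM and MB are also genes of skeletal muscle, 8 skeletal muscle markers were checked, of which ACTA1, an actin that heart muscle also makes, was called higher from CP to CM (621 to 3499 estimated counts). The determination factors MYOD1, MYOG, MYF5 and MYF6 were not listed for that step. All 5 smooth muscle markers were called higher. Of the others, 2 of 7 mesenchymal markers were called higher and 4 lower, 0 of 5 endothelial higher and 2 lower, 0 of 7 endoderm and epithelial higher and 5 lower, 0 of 6 pluripotent higher and 5 lower, and 3 of 5 neural higher and 1 lower. The part of these other cells in the members' changes was not tested.

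The comparison of UBE2B-/- CMs with wild-type CMs asked how these genes stood when the deposition complex was impaired. None of the 7 genes had a listed transcript in line 1 or in line 2, so 0 member transcripts were called, where 3.89% of all transcripts tested were called in line 1 and 3.99% in line 2. Sleuth's unadjusted p-values reach only 0.00236 and 0.00239 in these tables, so how many members passed 0.05 before adjustment is unknown. The lines share the 3 wild-type libraries, which are also the CM libraries of the CP to CM step. A call higher at that step and a call lower in a mutant line are therefore not independent. Of the 5767 transcripts called higher from CP to CM, 12.5% were called lower in line 1, 12.1% in line 2 and 8.17% in both, against 0 of the 10 member transcripts each time. With 10 member transcripts from 4 genes this is a description only.

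Absence from the tables limits the members' changes without showing that they were level. The SE cannot be smaller than the variance shared by transcripts of the same level allows, which sets a floor on the changes listed. The floor was estimated at the wild-type CM level. It would be another where the mean over all 9 libraries differed, so it is approximate. At their wild-type CM level, this floor was 0.56 on the log2 scale for CKB and 0.57 for CKM (1.48-fold for each), 0.65 for the main transcript of AK1, and 0.66 for the MANE Select transcripts of CKMT2 and MB. It was 2.44 for the rarest MB transcript (ENST00000443033.5). The floor leaves out the technical part of the variance. From CP to CM, this part was 88.4% for the MANE Select transcript of MB. Where the technical part was large, or a member varied more between replicates than transcripts of its level, larger changes would also have gone unlisted. With the SEs of the CP to CM table, the limit would be 0.67 for the main AK1 transcript, 1.99 for CKM, 2.53 for the MANE Select transcript of MB and 5.90 for that of CKMT2. Those SEs pool CP with CM libraries, and CKM, MB and CKMT2 were rarer in CPs, so the spread among CMs alone is unknown. If CKMT2 varied as widely among CMs, only a very large change in either line would have been listed.

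**Figure D4:**
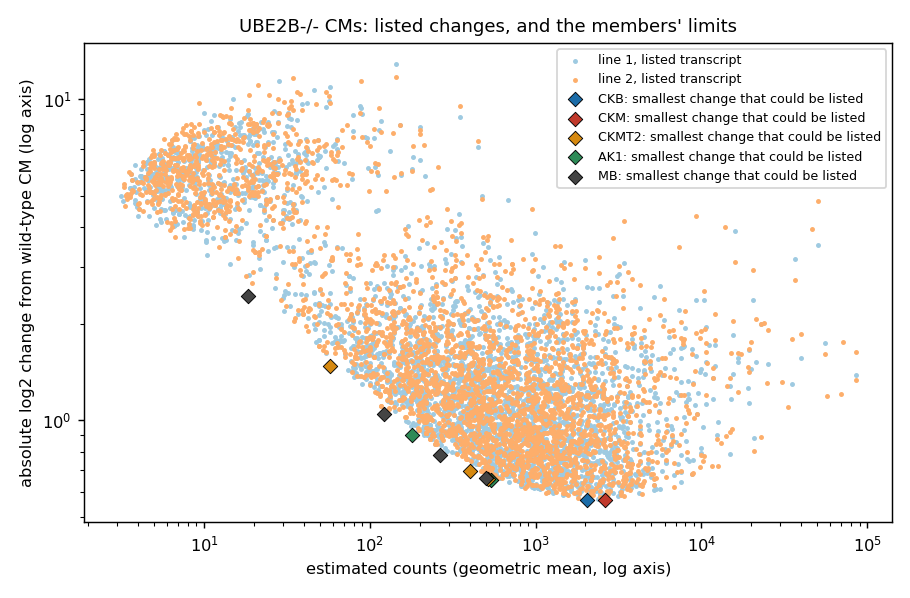
Absolute log2 change from wild-type CMs (log axis) against estimated counts (log axis) for the transcripts listed in line 1 and line 2. Diamonds mark, at the wild-type CM level of each member transcript, the estimated smallest change that could have been listed. This estimate leaves out the technical part of the variance. The diamonds run from 0.56 for CKB to 2.44 for the rarest MB transcript. No dot belongs to a member.

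Other genes of muscle and of energy transfer were listed in both lines. Of the 12 cardiomyocyte markers, 7 were called lower in both lines, among them TNNT2 at -1.48 in line 1 and -1.77 in line 2, and TTN at -3.17 and -2.74 on the log2 scale. The TNNT2 values are of ENST00000367318.9, not of the transcript that represents it from CP to CM. TNNI1 was called by ENST00000555948.5 alone, and MYL7 by a different transcript in each line. ENST00000336092.8, which represents TNNI1 from CP to CM, was listed in neither line. ENST00000223364.7, which represents MYL7 there, was not listed in line 1. Of the 29 pathway genes, 3 were called lower and 1 higher in both. Lower were SLC25A4, at -1.04 in line 1 and -1.25 in line 2 (SE 0.33 each), and its MANE Select transcript, at -1.02 and -1.10 (SE 0.23 each). PRKAG2 stood at -1.29 and -1.59 (SE 0.26 each), and PRKAA2, a catalytic subunit of AMP-activated kinase, at -1.05 and -0.86 (SE 0.26 each). AMPD2, an AMP deaminase, was higher, at 1.16 and 1.48 (SE 0.31 each). Taken singly, 2 of the 29 were called higher and 6 lower in line 1, and 1 higher and 4 lower in line 2. Of the markers of other cells, 1 of 5 smooth muscle genes was lower in both lines, 2 of 7 mesenchymal and 1 of 5 neural genes were higher in both, 1 of 7 endoderm and epithelial genes was lower and 1 higher, and no endothelial, skeletal muscle or pluripotent gene was called in both. Their part in these values was not tested. Whether the members differed from these genes in their response could not be tested, because the members' changes were not listed.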

How the data were processed

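Poly-A RNA-seq of 21 libraries was analysed, in 7 groups of 3 named by the sample labels. Per the labels and the study's methods, the authors quantified transcripts against hg38 with Kallisto and compared groups with the Wald test in Sleuth. The 6 deposited tables give p-values and q-values, the effect b, its standard error and mean_obs as natural logs of estimated counts plus 0.5, and variance estimates, deposited as scores in squared natural-log units. The study's methods state a minimum absolute fold change of 1.5, and calls here used an absolute b of log2(1.5), which is 1.79-fold because b is a natural log, so a limit of ln(1.5) was run as an alternative. Rows stop at a q-value of 0.05, and 0 columns hold values per library, so depth per library is unknown and the precision of a value is its standard error.

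The standard error, p-value and number tested (65457 to 71328) were recomputed from the columns. The UBE2B-/- tables come from 1 fit of 9 libraries. Stage levels were carried between tables by the median difference of the shared stage over shared transcripts, -0.121 to 0.0673 on the natural-log scale. Transcripts were joined to GENCODE 44 by identifier without version (21 of 21 rows). Words of 31 bases were counted in its transcript sequences. Promoters are RefSeq windows (GRCh38.p14) of 250 bases before the start, and 1 row per start was found for all 7 genes. No window lay at the GENCODE 44 start of the MANE Select transcript of MB or of CKMT1B. Scripts used Python 3.11.15 with pandas, numpy and scipy and were tested on simulated data. Every listed member transcript is named. The most similar patterns were the 3 nearest transcripts of other genes, and of the pathway list those called in both lines and the 3 largest per direction from CP to CM were named. One gene that this rule names is not reported here. GATM and GAMT were named after their values were seen. In the lists, a gene is represented by its listed transcript of highest mean. The members, lists and tests were chosen with earlier results of these data known. Alternatives were other limits on b and q, a t distribution, own variances, genes instead of transcripts, sums over transcripts, the pseudocount and the offset. Ratios are exponentials of b.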

Additional observations from a re-analysis of the deposited data

How the results depend on the processing

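With a limit of ln(1.5) on b, or none, CKB was added to the member transcripts called lower from M to CMes, which went from 4 to 5. Each transcript's own variance says nothing about stability, since only rows already past the q-value limit are listed and that standard error is not the larger one. With a t distribution the counts were 0 higher from iPSC to M, 0 higher and 0 lower from M to CMes, 0 lower from CMes to CP, and 1 higher and 0 lower from CP to CM, because all the statistics keep their order but carry larger p-values with 4 degrees of freedom. With a q-value limit of 0.01, the count from iPSC to M was 0, and the count called higher from CP to CM went from 10 to 8. Those lost from CP to CM were the CKMT2 transcripts ENST00000437669.5 and ENST00000505850.1. Counted as genes, the calls were 2 lower from M to CMes and 4 higher from CP to CM, since several transcripts belong to 1 gene. The change of MB from CP to CM was 4.03 by its transcript with the highest mean, 4.66 by the sum over listed transcripts and 8.85 by the transcript with the smallest p, and that of CKMT1B from M to CMes was -1.94 by the highest mean and -1.37 by the smallest p. Subtracting the pseudocount took CKM at M from 2.03 to 1.53 estimated counts and left 2 MB transcripts at 0 in CPs. The list of 29 pathway genes moved by over a factor of 1.5 in 7 comparisons, all at small counts. No paired analysis was possible because the tables hold no value per library, so leaving out a replicate was not run either. No member was listed in the UBE2B-/- tables, so neither both lines together nor the difference between them has a value. Depth is unknown, and what it limits can be read only from the standard errors.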
